A study of Mus musculus with 7 samples.

Results

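Actins are the proteins of the thin filament, and the 6 actin genes of the mouse were followed here through the first day after a single androgen dose in the uterus. The genes were chosen by symbol, with earlier results of these data known, and all probe sets that name 1 of them were taken. They are 6 of the 8251 genes that the annotation names singly, and had 8 of the 12422 probe sets of the array that are not controls, and 6 further control probe sets for beta-actin were set beside Actb. Of the 8 probe sets, 7 had a mean log2 signal above the floor, a signal of 145.9 to which lower values were raised.

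The series holds 7 Affymetrix U74Av2 arrays, each hybridized with RNA from pooled uteri of C57BL/6 females whose ovaries had been removed 7 days before death. On 6 arrays the mice had received 0.1 mg dihydrotestosterone (DHT) under the skin 1, 3, 6, 12, 18 or 24 h before death. DHT is an androgen that cannot be aromatized to estradiol. The 7th array is the only control, a pool taken 24 h after an injection of vehicle. All groups therefore lack ovaries, and the labels give no intact, unoperated or uninjected group. The labels give an age of 10 to 11 weeks, while the housing notes add 4 weeks of acclimation after arrival at that age. The design text names 10 mice, does not say whether that is per pool, and lists a 0.5 h group in place of the 18 h group of the array titles, which were followed. Each time had 1 array and no replicate, so values are described and not tested, and effects of DHT and of the injection cannot be told apart at 1 to 18 h. With pooled tissue, a change in the number of muscle cells and a change in RNA per cell cannot be told apart either.

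Vertebrates build muscle and non-muscle filaments from separate actin genes whose proteins are nearly the same. Acta1 and Actc1 encode the skeletal and cardiac alpha-actins of striated muscle, Acta2 and Actg2 the aortic and enteric actins of smooth muscle, and Actb and Actg1 the cytoplasmic actins found in most cells. The muscle layer of the uterus, the myometrium, is rich in the 2 smooth muscle actins. Genes for muscle actins are classic targets of serum response factor, which binds the CArG box and works with cofactors that free actin monomers hold in the cytoplasm.

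The promoters are shown because the muscle actins, except for 1 Actc1 probe set under the floor, were all higher than vehicle on the 12, 18 and 24 h arrays, called the late arrays here. Acta2 was only 1.07-fold of vehicle at 12 h, a difference reached by 75.2 percent of all probe sets. RefSeq entries of assembly GRCm38.p6 were found for 4 of the 6 genes, the others being Actb and Actg2. Each sequence is the 250 bases before the start site on the minus strand of the reference, written 5′ to 3′, and capitals mark CArG boxes, which are CC and GG around 6 bases of A or T, together with boxes that have 1 G or C among those 6 bases.
Acta1, chr8:123894776-123895025: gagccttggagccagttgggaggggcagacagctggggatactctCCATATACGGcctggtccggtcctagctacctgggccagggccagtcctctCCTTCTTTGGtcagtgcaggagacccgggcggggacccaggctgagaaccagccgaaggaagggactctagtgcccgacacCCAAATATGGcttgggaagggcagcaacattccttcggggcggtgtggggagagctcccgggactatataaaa
Actc1, chr2:114052876-114053125: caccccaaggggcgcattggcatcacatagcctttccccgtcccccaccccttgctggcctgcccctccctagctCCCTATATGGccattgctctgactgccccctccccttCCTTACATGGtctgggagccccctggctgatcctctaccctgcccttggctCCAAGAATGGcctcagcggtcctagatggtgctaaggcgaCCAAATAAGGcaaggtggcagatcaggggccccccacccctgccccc
Acta2, chr19:34255374-34255623: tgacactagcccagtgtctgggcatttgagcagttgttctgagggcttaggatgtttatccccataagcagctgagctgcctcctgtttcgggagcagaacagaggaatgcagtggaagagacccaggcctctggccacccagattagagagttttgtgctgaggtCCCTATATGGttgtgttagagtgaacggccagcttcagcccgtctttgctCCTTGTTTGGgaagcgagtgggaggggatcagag
Actg1, chr11:120348496-120348745: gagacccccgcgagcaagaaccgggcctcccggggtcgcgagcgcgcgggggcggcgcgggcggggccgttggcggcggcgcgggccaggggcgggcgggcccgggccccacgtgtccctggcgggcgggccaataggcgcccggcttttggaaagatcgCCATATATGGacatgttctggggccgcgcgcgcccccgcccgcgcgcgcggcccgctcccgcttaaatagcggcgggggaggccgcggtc

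An exact CArG box lies 73 to 64 bases before the annotated start of Acta1, 47 to 38 bases before that of Actc1 and 90 to 81 bases before that of Actg1. In the Acta2 window the marked boxes are both of the kind with 1 G or C, at 84 to 75 and 34 to 25 bases before the start. Among 32851 such windows in the table, which can hold several per gene, 1.47 percent have an exact box and 8.59 percent a box of either kind, read on both strands since the motif is its own complement. The half-site AGAACA of steroid receptors, searched on both strands, occurs in the Acta2 and Actg1 windows, not in those of Acta1 or Actc1, and in 16.1 percent of all windows. These are matches of letters and say nothing of binding. All distances depend on the annotated start sites, whose accuracy was not checked.

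Acta1 stood apart from the other actins in size. Its signal was 371.0 on vehicle, and in time order from 1 to 24 h it was 359.2, 305.8, 1256.6, 2681.9, 3060.3 and 2560.0. The vehicle, 1 h and 3 h arrays were low, the 3 late arrays were high, and the 6 h array lay between them with no overlap. The arrays from 6 to 24 h were 3.39-fold, 7.23-fold, 8.25-fold and 6.90-fold above vehicle, the last 3 with a mean log2 ratio of 2.89 ± 0.13 (SD over the 12, 18 and 24 h arrays, which are different times and not replicates).

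The step from 3 to 6 h was 4.11-fold and the step from 6 to 12 h was 2.13-fold. Of all 8421 probe sets above the floor, 0.0831 percent had a step at least as large, in either direction, from 3 to 6 h and 0.534 percent from 6 to 12 h. The order among the late arrays is not resolved, since 47.0 percent of probe sets differed at least as much as Acta1 between 12 and 18 h and 32.9 percent between 18 and 24 h. Likewise 78.6 percent differed as much between vehicle and 1 h. Among genes at least 2-fold higher than vehicle, Acta1 ranked 6th of 81 at 6 h, 1st of 116 at 12 h, 1st of 83 at 18 h and 1st of 59 at 24 h, each gene being represented by its brightest probe set.

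Actg2, the actin of visceral smooth muscle, came next, and later. Its signal was 2370.8 on vehicle, and in time order from 1 to 24 h it was 1745.0, 1668.7, 2181.9, 4532.6, 6075.1 and 6895.3. The 3 late arrays were above the other 4, and the 1 and 3 h arrays were the lowest. Its log2 ratios in that order were -0.44, -0.51, -0.12, 0.93, 1.36 and 1.54, so 18 and 24 h passed 2-fold and 12 h fell just short of it. At 6 h, when Acta1 was already 3.39-fold above vehicle, the log2 ratio of Acta1 exceeded that of Actg2 by 1.88, and at 24 h by 1.25.

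Acta2, the alpha-actin of vascular and other smooth muscle, moved less. Its signal was 8149.6 on vehicle, and in time order from 1 to 24 h it was 7183.9, 7113.5, 7368.9, 8754.6, 12037.0 and 13372.0. The 18 and 24 h arrays were the highest, at 1.48-fold and 1.64-fold of vehicle. With all arrays brought to the same distribution of signals (quantile normalization), the log2 ratios of Acta2 there were 0.45 and 0.56, in place of 0.56 and 0.71. The 3 beta-actin controls, which were brighter still, had a mean log2 ratio of 0.47 at 24 h. Whether bright probe sets were raised as a group on that array was not tested. At 24 h 6.01 percent of all probe sets were at least as far from vehicle as Acta2, at 18 h 12.6 percent and at 12 h 75.2 percent.

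Actc1, the cardiac alpha-actin, is read by a pair of probe sets that gave different pictures. The one whose name ends in f, the maker's mark for probes shared by a gene family, had a signal of 1329.5 on vehicle, and in time order from 1 to 24 h it was 1347.6, 1093.1, 1469.3, 2587.2, 2465.6 and 2595.1. The late arrays were above the others, at 1.95-fold, 1.85-fold and 1.95-fold of vehicle, all just short of 2-fold. The other Actc1 probe set, marked i for an incomplete set of probes, had signals of 2.7 to 34.4 and was under the floor on all 7 arrays. It gives no ratio, and which actin transcripts the family probe set read was not tested. The Actg2 probe set and one of the Actb probe sets carry the same family mark.

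**Figure D1:**
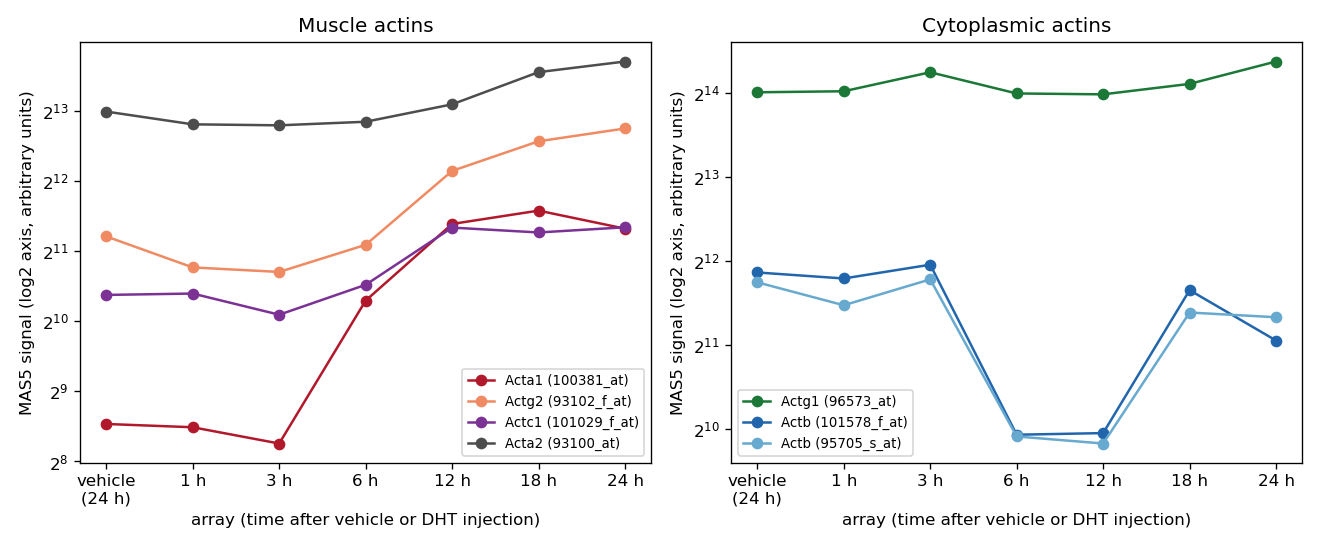
MAS5 signal on a log2 axis for each of the 7 actin probe sets above the floor, 1 point per array joined by lines, with muscle actins on the left and cytoplasmic actins on the right; heights of different probe sets are not comparable. Acta1 went from 305.8 at 3 h to 3060.3 at 18 h, while both Actb probe sets were lowest at 6 and 12 h.

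Counted at 2-fold with the higher signal at least 291.8, the actins were a small part of what differed. At 6 h 1 of the 7 probe sets above the floor was higher (Acta1) and 2 were lower (both of Actb), where 1.25 percent of all probe sets were higher and 1.2 percent lower. At 12 h the same 3 were called, against 1.75 and 1.39 percent. Acta1 was thus called at all 4 times from 6 to 24 h, as were 0.238 percent of all probe sets, and the Actb pair was lower at both 6 and 12 h, as were 0.487 percent. At 18 and 24 h Acta1 and Actg2 were higher and none was lower, where 1.35 and 0.938 percent of all probe sets were higher and 1.06 and 0.986 percent lower. At 1 and 3 h none of the 7 was called, against 0.546 and 1.18 percent higher and 0.582 and 0.831 percent lower. The members were chosen with these values known, so nothing is read from the shares. The median log2 ratio of the 7 was -0.07, -0.20, -0.12, 0.10, 0.56 and 0.71 in time order, and that of all 8421 probe sets was 0.00 at each time.

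Actg1, the cytoplasmic gamma-actin, varied least. Its signal was 16469.1 on vehicle, and in time order from 1 to 24 h it was 16610.1, 19424.1, 16310.9, 16193.1, 17649.6 and 21224.3. The highest array was 1.31 times the lowest, and even at 24 h 27.2 percent of all probe sets were at least as far from vehicle.

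Actb, the cytoplasmic beta-actin often used to scale other measurements, was low on the 6 and 12 h arrays by both of its probe sets, and its controls were not. The family probe set had a signal of 3731.6 on vehicle, and in time order from 1 to 24 h it was 3551.4, 3978.4, 980.2, 993.4, 3226.0 and 2129.9. The other, marked s for probes common to similar transcripts, had 3440.5, 2848.6, 3525.5, 966.3, 911.6, 2682.6 and 2580.6 in the same order. Both were lowest at 6 and 12 h, with no overlap with the other 5 arrays. Averaged over the pair on the log2 scale they were 3.68-fold lower than vehicle at 6 h and 3.77-fold lower at 12 h, and their log2 ratios differed from each other by 0.10 and 0.01. Among genes with several probe sets above the floor, 7.99 percent had ratios at least 1 log2 unit apart at 6 h and 9.19 percent at 12 h.

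The array also carries 3 control probe sets for the 5′ part, the middle and the 3′ part of the beta-actin transcript, and the sequence record in their names is the one the annotation gives for the family probe set of Actb. The 3′ control had a signal of 28672.8 on vehicle, and in time order from 1 to 24 h it was 26020.4, 35668.7, 28928.2, 27772.1, 32887.7 and 39816.5. None of the 3 controls was 2-fold from vehicle at any time, and their mean log2 ratio was 0.09 at 6 h and -0.04 at 12 h. The mean log2 ratio of the Actb pair minus that of the 3 controls was -1.97, -1.87, -0.52 and -1.08 on the arrays from 6 to 24 h, and -0.00 and -0.23 on the 1 and 3 h arrays. The probe sets for 1 gene thus gave different changes on the same arrays.

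The ratio of 3′ to 5′ signal in the beta-actin controls, a measure of RNA integrity, was 1.14 on vehicle, 1.03 at 6 h and 1.12 at 12 h, with a range of 1.03 to 1.19 over all arrays. The controls for the opposite strand, by contrast, moved with the Actb pair. The 3 opposite-strand beta-actin controls had a mean log2 ratio of -0.97, -1.34, 0.08 and -0.77 on the arrays from 6 to 24 h, and the 3 for Gapdh had -1.07, -1.12, 0.76 and -0.41. Both were low on the arrays where Actb was low. The spike controls (BioB, BioC, BioDn and CreX), which are not tissue RNA, were lowest there too. Their mean log2 ratio was -0.26, -0.36, 0.11 and 0.45 on the arrays from 6 to 24 h, and -0.02 and 0.57 at 1 and 3 h. The part of what moved these controls in the Actb values was not tested.

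**Figure D2:**
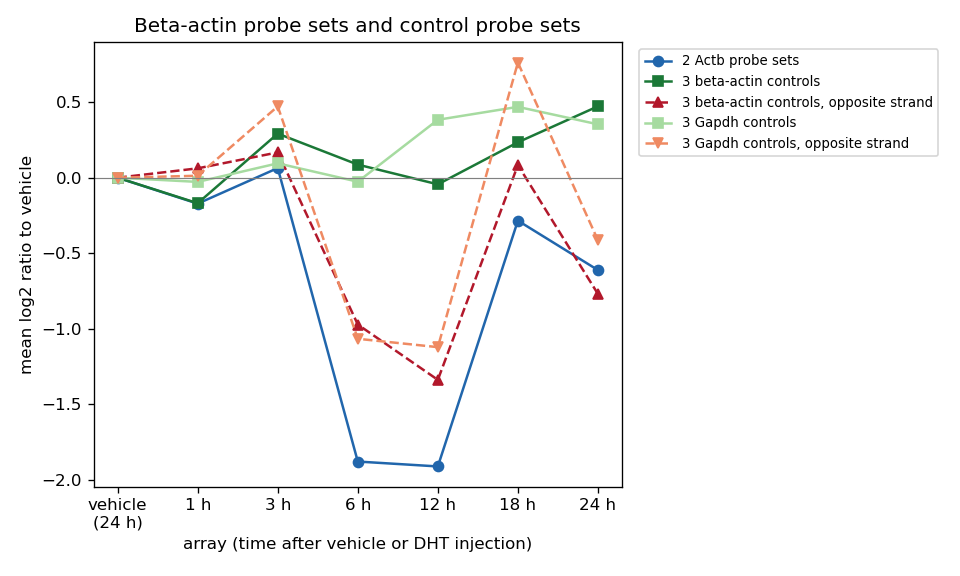
Mean log2 ratio to vehicle on each of the 7 arrays for the 2 Actb probe sets (circles), the 3 beta-actin and 3 Gapdh controls (squares) and the controls for their opposite strands (triangles, dashed). At 6 and 12 h the Actb pair lay at -1.88 and -1.91, the beta-actin controls at 0.09 and -0.04.

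The pattern of Actb was shared by a few other probe sets. In all, 14 of 8421 probe sets (0.166 percent), both of Actb among them, were at least 2-fold lower at 6 and 12 h and not 2-fold from vehicle at the other 4 times. The 8 genes nearest to Actb, by the root mean square difference in log2 ratio over the 6 times, were Sdc4, Sod1, Arglu1, Gnb1, Kcnj9, Sat1, Klf13 and Zkscan14, at 0.28 to 0.47 where the median of all 6325 other genes was 1.18. Sdc4, a cell surface proteoglycan, had a signal of 4209.6 on vehicle, and of 1501.9, 1071.0, 3840.4 and 1703.3 on the arrays from 6 to 24 h. Sod1, the superoxide dismutase of the cytoplasm, had 6159.8, 2647.1, 2365.7, 6720.5 and 3378.6 on the same arrays. Like Actb, the 8 genes were low at 6 and 12 h. They were closer to vehicle at 18 h than at 24 h, as was the family probe set of Actb, at -0.21 and -0.81. The other Actb probe set hardly differed between those arrays, at -0.36 and -0.41. Of all probe sets, 78 percent differed at least as much. Sdc4, Gnb1, Kcnj9 and Klf13 were at least 2-fold lower than vehicle at 24 h too. Neither Actb probe set was, nor were the other genes of the 8.

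By the same measure Acta1 had no neighbour as near as those of Actb. The nearest genes were Fkbp5, Aurkb, Kat2a, Mthfd2, Fkbp11, Bzw2, Fam220a and Fdps, at root mean square differences of 0.93 to 1.26, where the median of all genes was 2.18. Fkbp5, a co-chaperone of steroid receptors, had log2 ratios of 1.13, 2.44, 2.78, 2.46 and 1.28 from 3 to 24 h. It was thus above vehicle at 3 h, where Acta1 was at -0.28, and lower at 24 h, where Acta1 was at 2.79. With the mean of the 1 and 3 h arrays as the baseline, the nearest gene was another actin, Actg2, at 1.40. By Pearson correlation over the 7 arrays, which ignores the size of a change, the nearest 8 were all other genes, led by Skp1 at 0.989. Aurkb, a mitotic kinase, was under the floor on vehicle, so its ratios of 1.32, 2.22 and 1.63 at 12, 18 and 24 h are lower bounds.

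For Actg2 the nearest genes were Birc5, Kif20a, Kif22, Actc1, Anln, Smc2, Ckap2 and Pcp2, at 0.31 to 0.43 where the median of all genes was 0.99. Birc5, the survivin gene, whose product acts in chromosome segregation, had log2 ratios of 1.15, 1.69 and 1.37 at 12, 18 and 24 h beside 0.93, 1.36 and 1.54 for Actg2. Actc1, by its family probe set, was the only other actin in the lists of 8 against the vehicle array. Likeness over 6 ratios that share 1 vehicle array is a description of these arrays.

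**Figure D3:**
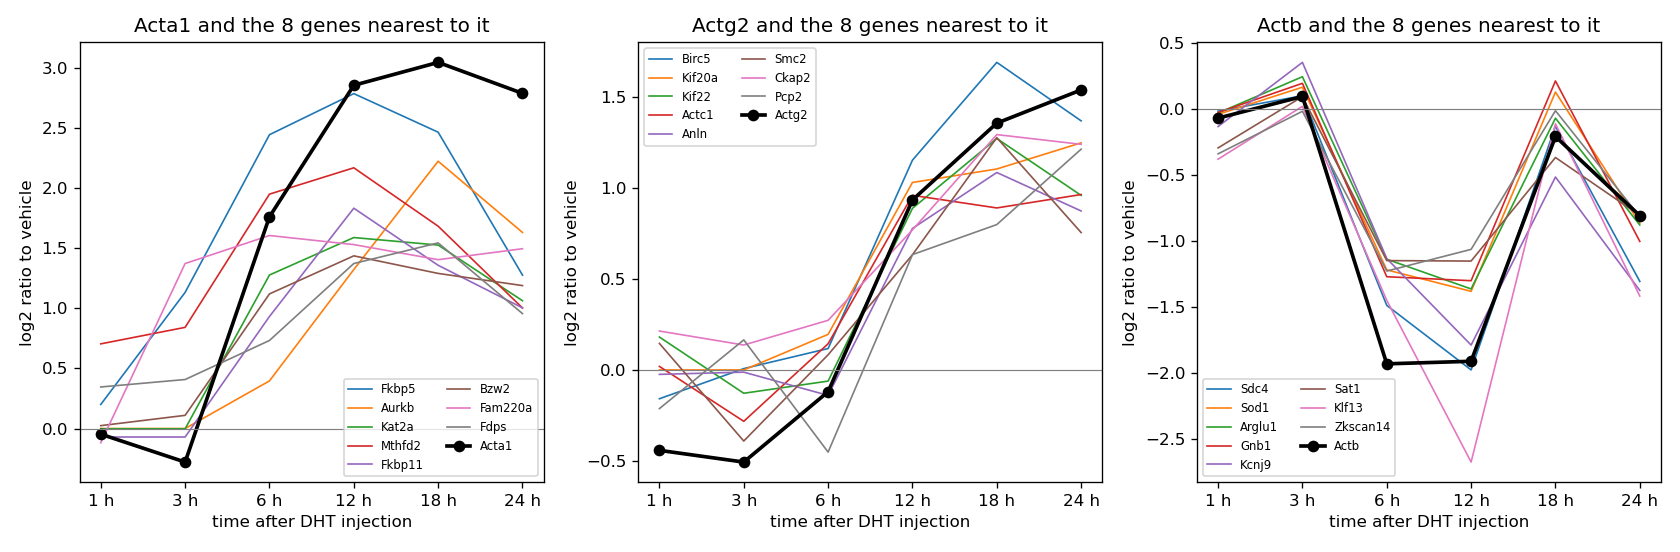
Log2 ratio to vehicle at the 6 DHT times for Acta1, Actg2 and Actb (black) and the 8 genes nearest to each (colours), 1 array per time. Acta1 lay above its neighbours at 12, 18 and 24 h, while Actb and its neighbours were low at 6 and 12 h together.

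None of the contractile partners of the actins in smooth muscle was 2-fold from vehicle at any time. Of 20 listed genes 13 were on the array and 12 passed the filter. On all 3 late arrays 9 of the 12 lay above vehicle and 0 below it, where 28.7 percent of all genes tested lay above and 30.5 percent below. Their median log2 ratio was -0.02, -0.10, -0.00, 0.20, 0.34 and 0.48 in time order, beside 0.00 at each time for all 6326 genes tested. Of those, 0.474, 1.23, 1.28, 1.83, 1.31 and 0.933 percent were 2-fold higher in that order and 0.506, 0.759, 1.14, 1.2, 1.03 and 0.822 percent lower, which is the background for the lists that follow. The summed signal of the list lay between 36579.6 at 3 h and 57008 at 24 h. The 3 bright beta-actin controls had mean log2 ratios of -0.17, 0.29, 0.09, -0.04, 0.23 and 0.47 in time order. They were close to the list's median at 24 h, and differed from it more at 3 h and 12 h. Examples chosen after their values were seen are Cnn1, the thin filament protein calponin, at 0.63, 0.89 and 0.75 at 12, 18 and 24 h, and Myh11, the smooth muscle myosin heavy chain, at 0.17, 0.31 and 0.68. Lower in the list were the intermediate filament gene Des, at 0.00, -0.16 and 0.14, the myosin light chain Myl6, at 0.09, -0.01 and -0.03 with 4 arrays under the floor, and the channel subunit Kcnmb1, at 0.32, 0.28 and -0.09. At 24 h Acta2, at 0.71, was close to Myh11, and Actg2 and Acta1 were above every gene of this list at 18 and 24 h.

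Because Acta1 and Actc1 mark striated muscle, genes particular to that tissue were read on the same arrays. Of 47 listed genes 43 were on the array, 23 of these did not pass the filter because they were under the floor on every array, and 20 passed. The fast and slow myosins Myh1, Myh2 and Myh7, the troponin Tnnt3 and the oxygen store Mb were among those under the floor. Other genes of the same kinds were above it on every array. Examples are the fast myosin Myh4, with signals from 148.1 at 3 h to 296.1 on vehicle, and the troponin Tnni1, from 270.0 at 18 h to 630.9 at 3 h. Casq1, a calcium store protein, ranged from 432.7 at 3 h to 590.6 on vehicle. Ckm, the creatine kinase of muscle, had a signal of 218.0 on vehicle, and of 113.6, 82.0, 271.5 and 180.6 on the arrays from 6 to 24 h. Those at 6 and 12 h were under the floor. The list's median log2 ratio was -0.05, 0.00, -0.27, -0.19, -0.16 and -0.10 in time order, and its summed signal was highest on vehicle, at 8982, and lowest at 6 h, at 6597. Pvalb, a calcium buffer, made up between 25.0 and 33.8 percent of that sum, and without it the sum was highest at 3 h, at 6429, and lowest at 6 h, at 4758. The only call was Myod1, which sets the muscle fate, lower at 12 h (309.0 against 619.4 on vehicle), where 1.2 percent of all genes tested were lower, and with the floor at the 60th percentile it was at -0.79 and not called. On all 3 late arrays 2 of the 20 lay above vehicle and 9 below it, where 28.7 percent of all genes tested lay above and 30.5 percent below. The 2 were the troponin Tnnt1, at 0.27, 0.32 and 0.45, and Actn3, an alpha-actinin, at 0.17, 0.26 and 0.23. At 24 h the muscle regulator Myog was at 0.77 and the troponin Tnnt2 at 0.35. Actn3 and Tnnt2 were under the floor on vehicle, so their ratios are lower bounds, and Tnnt2 was under it on 6 arrays.

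**Figure D4:**
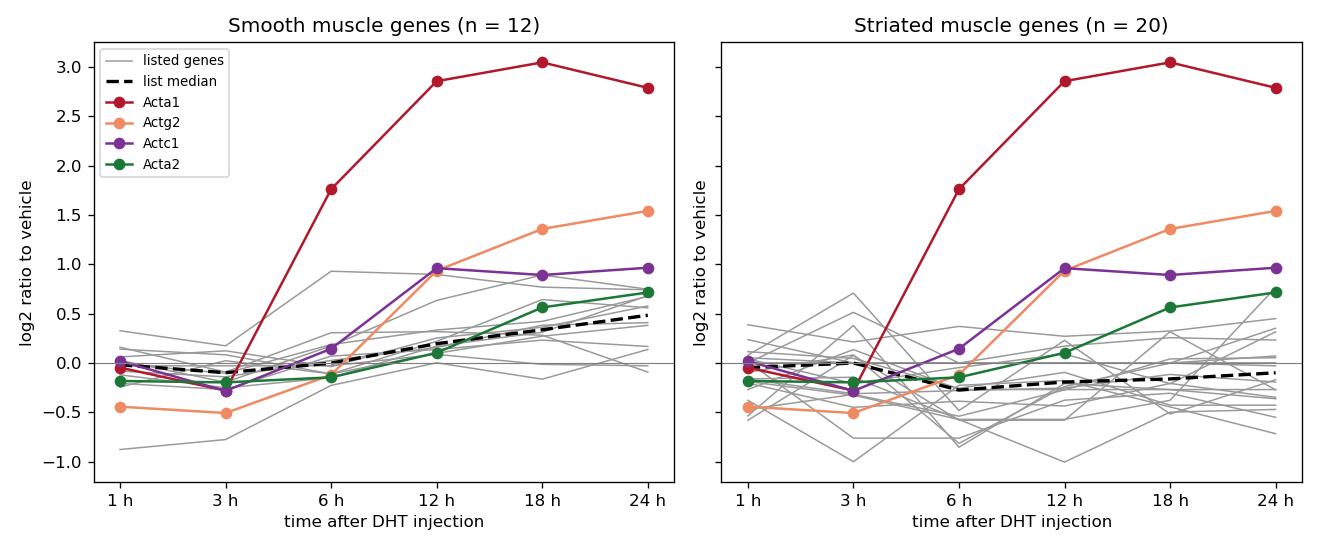
Log2 ratio to vehicle at the 6 DHT times for 12 smooth muscle genes (left) and 20 striated muscle genes (right), grey, with the list median dashed and 4 muscle actins in colour, 1 array per time. The smooth muscle median reached 0.48 at 24 h and the striated muscle median stayed between -0.27 and 0.00.

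Of the genes that handle actin, nearly all stayed within 2-fold of vehicle. Among 23 tested genes for monomer binding, severing and capping, 1 was lower at 3 h and at 18 h, where 0.759 and 1.03 percent of all genes tested were lower, and none was higher. This was Pfn1, whose product profilin feeds monomers to growing filaments. Its signal was 625.5 on vehicle, and in time order from 1 to 24 h it was 346.3, 295.8, 406.7, 444.0, 301.6 and 427.1, so every DHT array was below vehicle. With the floor at the 60th percentile its ratio was -0.80 at both times and neither was called.

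Among 15 nucleation genes, such as those of the Arp2/3 complex, none was called, and the median stayed between -0.06 and 0.04. Among 30 genes for crosslinking and membrane linkage, 1 was called. It was Enah, which protects growing filament ends, at 1.06 at 6 h, where 1.28 percent of all genes tested were higher, and its ratios at the other times were 0.57 to 0.95. It was 0.68 with the higher floor and 0.38 as the mean over its probe sets, and not called by either. Of 3 tested genes for actin-related proteins none was called.

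For serum response factor, its partners and upstream regulators, 20 of 25 listed genes had a probe set naming that gene alone. Srf itself and the genes Myocd, Mrtfb, Rock2 and Mical2 had none and were not read. Of the 18 genes tested, 1 was called, lower at 24 h, where 0.822 percent of all genes tested were lower. It was Rhoa, the small GTPase that drives filament assembly, with a signal of 2964.6 on vehicle, and of 1646.5, 1570.7, 3305.5 and 1196.3 on the arrays from 6 to 24 h. Its ratios were -0.85, -0.92, 0.16 and -1.31 in that order, low on the same arrays as the Actb pair and the opposite-strand controls, whose part in it was not tested. As the mean over its probe sets it was -0.48 at 24 h and not called. Mrtfa, the actin-sensing cofactor, named after its values were seen, lay between -0.06 and 0.36. The list's median was 0.07, -0.03, -0.12, -0.08, -0.26 and -0.08 in time order.

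Markers of the other cells in the tissue gave the setting for these values. Epithelial genes, 15 tested, had no call and medians of -0.05 to 0.17. Stromal genes, 13 tested, had medians of 0.13, 0.23 and 0.25 at 12, 18 and 24 h, with Col1a1 at 1.01, 1.37 and 1.30 and Col3a1 at 1.15, 1.17 and 1.36, both fibrillar collagens. As the mean over its probe sets Col1a1 was 0.40, 1.34 and 0.83, so that the 12 and 24 h calls were lost. On all 3 late arrays 7 of the 13 (53.8 percent) lay above vehicle, where 28.7 percent of all genes tested did. Below it lay 4 (30.8 percent), close to the 30.5 percent of all genes tested. The 4 were Pdgfra at -0.51, -0.56 and -0.14, Thy1 at -0.34, -0.43 and -0.61, Fbln1 at -0.43, -0.53 and -0.42 and Mfap5 at -0.33, -0.83 and -0.20. Endothelial genes, 10 tested, had no call and a median at or below 0.05 at every time. Leukocyte genes, 10 tested, had no call and medians down to -0.30 at 18 h. Adipocyte genes, 10 tested, had medians from -0.16 at 1 h to -0.51 at 24 h, although Lep, the fat hormone leptin, was called higher at 1, 6 and 24 h, with log2 ratios of 1.63, 1.31 and 1.07. The summed stromal signal was between 58389 and 82093 and was highest at 24 h, as it was for the smooth muscle list, and the part of cell proportions in the actin values was not tested.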

How the data were processed

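The authors' deposited values are linear signal intensities which, per the submitters' processing notes, came from MAS5, with the version not given in the sources used here. They cover 12488 probe sets, 66 of them controls, with 1 array per pooled sample. The trimmed mean between the 2nd and 98th percentiles came out at 500.2 on every array, which shows a common scaling that was left as it was. Detection calls were not used here. Array medians over the probe sets that are not controls lay between 228.0 and 237.7, and between 39.4 and 40.8 percent of values lay under the floor. With arrays, their number limits the precision.

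Before log2, low signals were set to a floor of 145.9, the 40th percentile of the whole table. Of the 12422 probe sets, 10833 named 1 gene, 396 several and 1193 none, with symbols updated through the gene table of GRCm38.p6. Those with a mean log2 above the floor, 8421, formed the background, and the brightest probe set stood for each gene (6326 genes). A call needed 2-fold and a higher signal of at least 291.8. Fold changes are on the floored log2 scale, except the mean ratios of the Actb pair and of the control probe sets, which were taken without a floor. No test was made, since each group has 1 array and the actin genes were taken up with their values known. The members and lists were chosen with earlier results of these data known.

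Named by rule were all actin probe sets and beta-actin controls, of each list up to 4 genes past 2-fold at 2 or more times, and the 8 genes nearest to Acta1 and to each other actin whose brightest probe set was 2-fold from vehicle at any time. Outside that rule, list genes called at 1 time (Enah, Rhoa and Myod1) were named, as were uncalled list genes picked with their values known. The code that makes calls and finds the nearest genes was checked on simulated arrays, from which no value is given. Alternatives changed the floor, the scaling, the fold, the baseline array, the rule for several probe sets, the filter and the measure of likeness. Work was done in Python 3.11.15 with numpy 2.4.6 and pandas 2.3.3.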

Additional observations from a re-analysis of the deposited data

How the results depend on the processing

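All 196 single actin ratios recomputed under another floor, scaling or baseline moved by less than 1.5-fold, and no called one changed sign. With the 1 and 3 h arrays in place of vehicle as the baseline, the actin calls at 6 to 24 h went from 6 to 10 higher, adding the Actc1 family probe set at the 3 late times and Actg2 at 12 h, and stayed at 4 lower. The mean excess of Acta1 over the median of the other actin probe sets at 12, 18 and 24 h was 2.59 on the log2 scale and lay between 2.59 and 2.72 under the alternatives. The background counts depended on the settings, where 95, 169, 206, 264, 203 and 162 probe sets were 2-fold from vehicle at 1, 3, 6, 12, 18 and 24 h. In that order they were 619, 788, 770, 866, 792 and 770 with a floor at the 20th percentile and 16, 52, 73, 121, 81 and 53 with one at the 60th. At 1.5-fold they were 375, 639, 924, 1134, 775 and 718, and at 3-fold 12, 32, 22, 37, 30 and 18. Calls in the 5 actin pathway lists, 4 in all over the 6 times, were 11 with the lower floor, 1 with the higher floor and 2 with the mean over all probe sets of a gene. The higher floor kept Rhoa and lost Pfn1 and Enah, and the mean kept Pfn1 and lost Enah and Rhoa. The called genes of the marker lists were put through the same settings, chosen after seeing the data. Of the 8 genes nearest to Acta1, 4 were shared under the other baseline and 0 by Pearson correlation over the 7 arrays, so these neighbours depend on the measure. No paired analysis was possible because each group has 1 array. Every ratio rests on 1 vehicle array, and a signal under the floor on either side gives only a bound.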

Other observations

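Among the 12 probe sets other than those of Actb that were at least 2-fold lower at 6 and 12 h and not at the other 4 times, 3 belong to a gene with another probe set above the floor. For Uhmk1, a kinase gene, the ratio was -1.17 at 6 h and -1.54 at 12 h, while the lower value of its other probe set at those times was -0.08. For Zc3h15 the ratios were -1.23 and -1.37, against 0.31 for the lower value of its other probe set. For Notch2, a receptor of cell contact signals, they were -1.07 and -1.36, against -0.94. As for Actb with its controls, probe sets of 1 gene therefore gave different changes for Uhmk1 and Zc3h15 on these arrays. These genes were picked after their values were seen, and the cause was not tested.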
